A study of Mus musculus with 8 samples.

Results

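The genes described here are transcription factors and feedback genes of the ATF4 pathway in neuro2a (N2a) cells with and without knockdown of Grp94. ATF4 is a transcription factor of the basic leucine zipper (bZIP) class. Kinases that sense unfolded protein in the endoplasmic reticulum (ER), lack of amino acids or other stress phosphorylate the initiation factor eIF2. This lowers general translation while translation of the Atf4 mRNA goes up, so that the level of this mRNA is only part of how ATF4 is controlled. ATF4 then turns on genes of amino acid supply together with partner factors, and also genes that dampen the pathway again. ATF4, ATF3, ATF5, CHOP (the product of Ddit3), C/EBPβ and C/EBPγ are bZIP factors that pair with each other. The feedback genes are Trib3, Ppp1r15a, Sesn2 and Fam129a.

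The data come from 8 arrays of the type Affymetrix Mouse Gene 1.0 ST. Of these, 4 were of cells that received a control vector, called empty vector here. The other 4 were of cells with knockdown of Grp94, an ER chaperone encoded by Hsp90b1. N2a is a mouse neuroblastoma line, and the cells of both groups were transfected with plasmids carrying EmGFP and taken 2 days later. The knockdown plasmids express an artificial microRNA against Grp94. The methods name more than 1 Grp94 construct, and as controls an empty and a non-targeting vector. The labels do not assign constructs to arrays, and the titles of the control arrays say vector without calling it empty. RNA came from the whole culture, so a small decrease in all cells and a larger one in the transfected cells cannot be told apart. The number of arrays limits the precision of all values below.

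Members were chosen by name from a list of 10 genes drawn up with earlier results of these arrays in view, and a member was kept if the authors' deposited table holds a row for it. The table has 2395 rows, each a transcript cluster (the probes assigned to a gene), and 8 of the 10 members have a row in it. Cebpb and Cebpg, the genes for C/EBPβ and C/EBPγ, were not listed. The authors limited the table to rows with an adjusted p-value of at most 0.01 for this same comparison. A listed member therefore had to differ between the groups, and a gene without a row has no value here, which does not show that it was unchanged. For each row the table gives 1 log2 mean per group, centred for each transcript cluster. These values keep no level of expression and no spread between arrays, so the differences below are given without an error or a test.

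The table held 4 of 14 markers of neurons and neuroblastoma. Th, the gene for tyrosine hydroxylase, had a difference of -0.12 and Dbh, the gene for dopamine β-hydroxylase, one of 0.49 (both log2, knockdown minus empty vector). Hand2 had 0.26 and Stmn2 -0.17. Of 15 markers of astrocytes, oligodendrocytes, microglia, fibroblasts and endothelium, 0 were listed. Since levels were removed by the centring, the labelled cell type could not be checked beyond this. Hsp90b1, the target of the knockdown, had an authors' mean of 0.74 in the empty vector group and -0.78 in the knockdown group, which is a difference of -1.52 and the third lowest of all rows.

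The promoters of the members are shown first, because ATF4 and its bZIP partners act by binding short DNA elements in the genes they control. RefSeq promoter windows of build GRCm38.p6, from 250 bases before the start site to 50 bases from it on, were found for all 10 members, with 2 windows for Atf5 and 1 for each other gene. Fam129a was matched by its present symbol, Niban1. Both strands were searched for TGATGNAAN, the core of the C/EBP-ATF response element (CARE) that ATF4 binds with C/EBP partners. The other motifs were the cAMP response element (CRE) TGACGTCA, the shorter CRE core TGACG that also lies within the full CRE, and the NF-Y box CCAAT, the motif of the factor the study is about. In the 4 promoters below, capitals mark CARE, CRE and NF-Y box matches. They are shown because they hold the CARE and CRE matches found among the members (Atf3, Trib3, Ppp1r15a) or belong to the central factor (Atf4). Each runs 5′ to 3′ on its gene's strand for 250 bases up to the base before the start site. That of Trib3 goes on for 23 bases to include its match.
Atf4, chr15:80254934-80255183, plus strand: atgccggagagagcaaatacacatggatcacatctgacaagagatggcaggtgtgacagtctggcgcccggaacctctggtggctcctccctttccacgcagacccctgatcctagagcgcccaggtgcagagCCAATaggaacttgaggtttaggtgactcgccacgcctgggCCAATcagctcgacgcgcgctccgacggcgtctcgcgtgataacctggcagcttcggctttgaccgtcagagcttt
Atf3, chr1:191183334-191183583, minus strand: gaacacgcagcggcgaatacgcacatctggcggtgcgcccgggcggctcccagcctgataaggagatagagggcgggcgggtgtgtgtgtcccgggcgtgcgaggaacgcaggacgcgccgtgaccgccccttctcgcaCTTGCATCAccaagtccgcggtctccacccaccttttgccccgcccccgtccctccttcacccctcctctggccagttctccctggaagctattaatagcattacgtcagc
Trib3, chr2:152344038-152344310, minus strand: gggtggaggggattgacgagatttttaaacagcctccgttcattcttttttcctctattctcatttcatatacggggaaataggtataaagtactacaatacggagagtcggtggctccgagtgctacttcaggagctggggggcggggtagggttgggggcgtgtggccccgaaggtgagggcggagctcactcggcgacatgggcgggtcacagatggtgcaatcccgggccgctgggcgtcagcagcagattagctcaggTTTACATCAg
Ppp1r15a, chr7:45526269-45526518, minus strand: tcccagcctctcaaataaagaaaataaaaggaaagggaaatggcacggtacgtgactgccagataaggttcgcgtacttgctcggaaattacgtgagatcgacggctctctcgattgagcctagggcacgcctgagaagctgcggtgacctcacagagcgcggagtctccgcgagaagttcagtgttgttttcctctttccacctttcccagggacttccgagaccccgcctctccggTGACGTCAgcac

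A CARE match was found in 2 of the 11 member windows, where 3.95% of all 32851 windows hold one. The match of Atf3 lay 111 bases before the start site, and that of Trib3 lay 13 bases after it, both on the strand opposite to the gene. The CRE was found in 1 member window, that of Ppp1r15a, where it began 12 bases before the start site, and in 1.79% of all windows. The shorter CRE core was found in 5 member windows (Atf4, Atf3, Cebpb, Trib3 and Ppp1r15a) and in 20.8% of all windows. NF-Y boxes were found in 6 member windows and in 37.4% of all windows. Atf4 had them 117 and 76 bases before its start site, Sesn2 157 and 93 bases and Cebpg 89 and 28 bases before theirs. Ddit3 and the second window of Atf5 had 1 each before the start site, and the NF-Y box of Atf3 lay 5 bases after it. Neither the window of Fam129a nor the first window of Atf5 held any of these motifs. That no motif was found says only that these letters are not in the window. A match is a description of the letters and not a site shown to be bound.

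**Figure D1:**
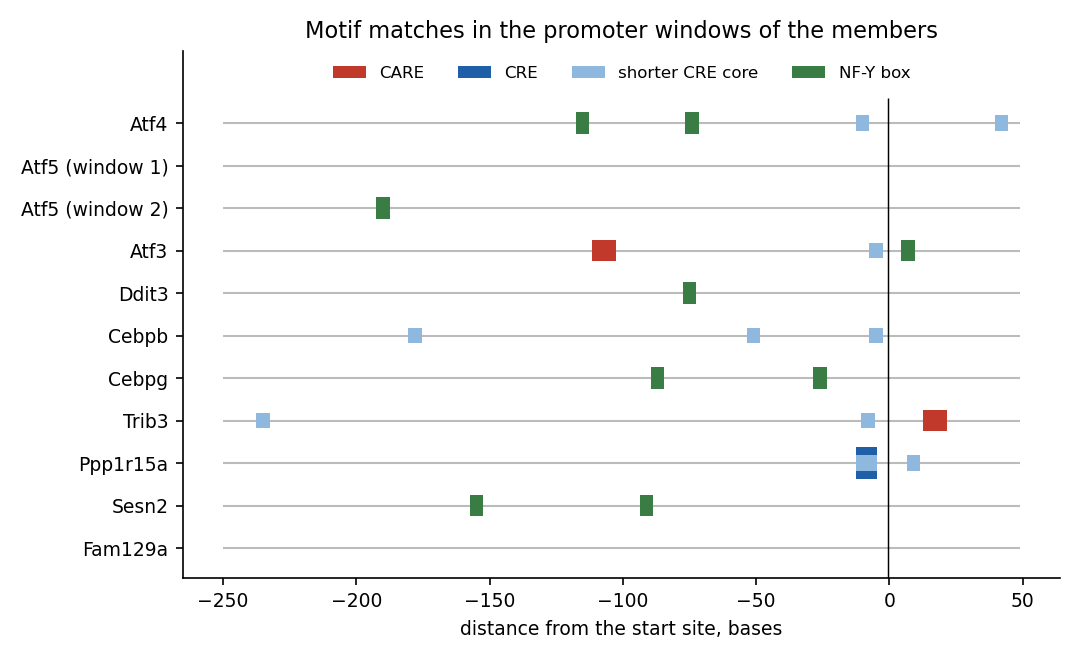
Motif matches in the RefSeq promoter windows (GRCm38.p6) of the 10 members, 1 line per window, with distance from the start site in bases on the x axis and the start site as a vertical line. Red bars are CARE, dark blue bars the CRE, light blue bars the shorter CRE core and green bars NF-Y boxes; CARE appears in Atf3 and Trib3 and the full CRE in Ppp1r15a.

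All 8 listed members were lower in the Grp94 knockdown. Their differences ran from -1.48 for Fam129a to -0.26 for Atf4, with a median of -0.52, where the median over all rows was -0.16. Over all rows, 59.9% were lower. At a fold of at least 1.3 (a log2 difference of 0.38), 6 members were lower and 0 higher, where 16.1% of all rows were lower and 6.26% higher past that fold. The table and the members were selected on this same comparison, so these counts describe the members and support nothing further. The members' rows rest on 25 to 32 probes each, near the median of 30 over all rows.

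Among the factors, Atf4 itself had the smallest difference. Its authors' mean was 0.12 in the empty vector group and -0.15 in the knockdown group. The difference of -0.26 leaves 83.2% of the empty vector value, and it ranked 757 from the lowest of all rows. The row of Atf4 (transcript cluster 10425364) lies on the plus strand of chromosome 15 from 80085614 to 80087971 in the coordinates of the table, whose build is not given in the sources used here.

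Atf3, a stress-induced bZIP factor that acts mostly as a repressor and is itself a target of ATF4, had the largest difference of the factors. Its authors' mean was 0.28 in the empty vector group and -0.29 in the knockdown group, a difference of -0.57 or 1.49-fold (chromosome 1, 192994175 to 193007219, minus strand). This is the gene with a CARE match before its start site, and whether that match bears on the difference was not tested.

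Atf5 and Ddit3 share their rows with other genes, so that their values are less certain. Atf5 encodes a bZIP factor translated under stress in much the same way as ATF4. Its row also names Nup62-il4i1 (chromosome 7, 52067627 to 52071969, minus strand), and the authors' mean was 0.20 in the empty vector group and -0.26 in the knockdown group. The difference of -0.46 is 1.38-fold lower. A separate row of Nup62 and Nup62-il4i1, which overlaps it by 261 bases on the opposite strand and shares no transcript with it, had a difference of -0.16. The Atf5 row and its neighbour thus had the same sign, and the difference of the first minus that of the second was -0.30.

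Ddit3 encodes CHOP, which pairs with ATF4 and is known as a mediator of cell death under lasting ER stress. Its row is shared with Mars, the gene for methionyl-tRNA synthetase (chromosome 10, 126727864 to 126733344, plus strand). The authors' mean was 0.12 in the empty vector group and -0.22 in the knockdown group, a difference of -0.34 or 1.26-fold. Mars also has a row of its own on the opposite strand, which overlaps the shared one by 63 bases and has 1 transcript in common with it. That row had a difference of -0.17, and the shared row's difference minus this one was -0.16. How much of the shared value belongs to Ddit3 was not tested.

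All 4 feedback genes were lower past 1.3-fold, as were 16.1% of all rows. Relative to the median of all rows, Sesn2 had -0.31 and no longer passed that fold, which left 3 of the 4. The 16.1% is not on that scale, and the share of all rows was not counted on it. The median of the feedback genes was -0.82 and that of the 4 listed factors -0.40. Their ranges overlapped, since Sesn2 had a smaller difference than Atf3. Fam129a, also known as Niban, is induced by stress and has been linked to control of eIF2 phosphorylation and survival. Its authors' mean was 0.64 in the empty vector group and -0.84 in the knockdown group. The difference of -1.48 is 2.79-fold lower, or 35.9% of the empty vector value, and the fourth lowest of all rows, next to the -1.52 of Hsp90b1 (chromosome 1, 153418605 to 153566472, plus strand).

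Trib3 encodes a pseudokinase of the Tribbles family that binds ATF4 and represses it, and also binds AKT. Its authors' mean was 0.45 in the empty vector group and -0.49 in the knockdown group. The difference of -0.94 is 1.92-fold lower, or 52.0% of the empty vector value, with rank 30 from the lowest (chromosome 2, 152163158 to 152169796, minus strand).

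Ppp1r15a encodes GADD34, which brings protein phosphatase PP1 to eIF2 so that translation can resume. Its authors' mean was 0.34 in the empty vector group and -0.36 in the knockdown group, a difference of -0.70 or 1.63-fold (chromosome 7, 52778290 to 52781583, minus strand). Sesn2 encodes sestrin 2, which senses leucine and restrains the growth kinase complex mTORC1. Its authors' mean was 0.23 in the empty vector group and -0.24 in the knockdown group, a difference of -0.47 or 1.39-fold (chromosome 4, 132048711 to 132066371, minus strand).

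**Figure D2:**
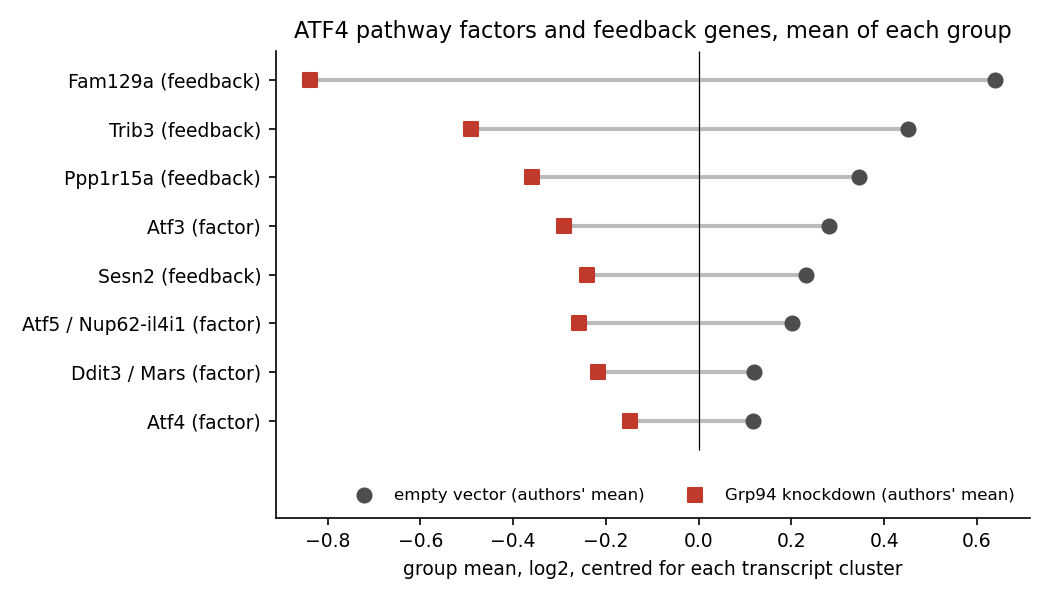
Authors' mean of each group for the 8 listed members, on the log2 scale centred for each transcript cluster (x axis); grey circles are the empty vector and red squares the Grp94 knockdown, with no error since the table gives none. Every empty vector mean is above 0 and every knockdown mean below it, and the distance between them is longest for Fam129a (-1.48) and shortest for Atf4 (-0.26).

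From the lowest difference up, the order was Fam129a, Trib3, Ppp1r15a, Atf3, Sesn2, Atf5, Ddit3 and Atf4. Neighbours in the middle of this order were close together, with -0.47 for Sesn2 and -0.46 for Atf5. Without values per array it is unknown which neighbours differ by more than the spread between arrays. The midpoint of both group means lay between -0.05 and 0 for 7 of the members, while that of Fam129a was -0.10, outside the range from -0.07 to 0.05 that holds all but the outermost 1% of rows at each end.

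**Figure D3:**
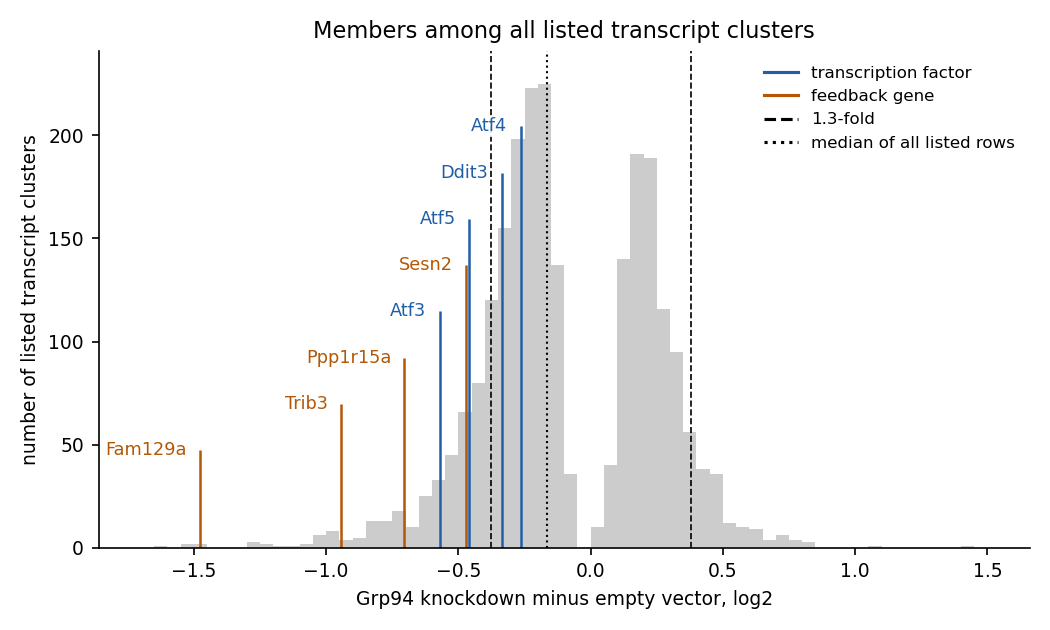
Number of listed transcript clusters (y axis) by difference of Grp94 knockdown minus empty vector on the log2 scale (x axis), with the 8 members as lines whose height has no meaning, blue for factors and orange for feedback genes. Dashed lines mark 1.3-fold and the dotted line the median of all rows, -0.16; all members lie left of the dotted line, and Atf4 and Ddit3 lie between it and the left dashed line.

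Of 20 genes for eIF2 kinases, eIF2, eIF2B and the eIF2 phosphatase, 4 had a row that names them. Eif2s3x, a subunit of eIF2, had a difference of -0.22, and Ppp1ca, a catalytic subunit of PP1, had -0.19. The row that names Eif2s2, another subunit, together with the pseudogene Gm9892 also had -0.22. It lies on chromosome 8, while RefSeq places Eif2s2 on chromosome 2, so this value cannot be assigned to Eif2s2. The other listed gene was higher, and 0 of the 4 passed 1.3-fold. Of all rows, 59.9% were lower, and past 1.3-fold 16.1% were lower and 6.26% higher. The genes for the eIF2 kinases, Eif2ak1, Eif2ak2, Eif2ak3 and Eif2ak4, had no row.

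Close relatives of the members did not all have the same sign. Of 16 paralogs 4 were listed, 3 lower and 1 higher, where 59.9% of all rows were lower. So few genes do not set the paralogs apart from that share. Atf6, which encodes an ER stress sensor, had -0.44 and Atf7 had -0.41, while Trib1, from the same family as Trib3, was higher with 0.42. Trib3 at -0.94 and Trib1 at 0.42 therefore lie on opposite sides of 0. Of 33 other bZIP factors 8 were listed, 4 lower and 4 higher. The largest difference among them was that of Nfil3 (-0.59), a repressor of clock and immune genes, followed by Xbp1 (-0.36), the factor of the IRE1 arm of ER stress, and Creb3l1 (-0.28). Their median was -0.08, against -0.40 for the factors of the ATF4 pathway. Those factors were chosen with earlier results of these arrays in view, so this contrast supports nothing further. Of these factors, Atf5 and Ddit3 rest on shared rows. Nfil3 was lower than every listed factor, the lowest of which was Atf3 (-0.57).

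The 4 lists used for ATF4 targets together hold 72 genes. They were drawn up by function, and whether ATF4 controls each gene in these cells was not tested. Of the 72, 44 were listed and the others have no value here. Of the 44, 43 were lower and 1 higher, where 59.9% of all rows were lower. Past 1.3-fold 20 were lower, where 16.1% of all rows were. The median of all rows (-0.16) by definition has about as many rows below it as above. Relative to it more of the 44 were higher. The share of lower genes was then 80% for tRNA synthetases and tRNA export and 85.7% for amino acid synthesis. It stayed at 100% for transporters and other induced targets. Of 18 genes of amino acid synthesis 14 were listed, 13 lower and 1 higher, with a median of -0.32, and 6 were lower past 1.3-fold. They were led by Cth (-1.46), which makes cysteine from cystathionine, Aldh1l2 (-1.02), a mitochondrial enzyme of folate metabolism, and Pycr1 (-0.80), the last step of proline synthesis. All 9 listed of 14 amino acid transporters were lower, with a median of -0.30, and 4 of them passed 1.3-fold. The largest differences were those of Slc7a11 (-1.30), the cystine carrier, Slc7a3 (-0.99), a carrier of cationic amino acids, and the glycine carrier Slc6a9 (-0.46, in a row shared with Ccdc24).

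All 10 listed of 21 genes for tRNA synthetases and tRNA export were lower, with a median of -0.23 and 2 past 1.3-fold. The share of all rows lower past that fold was 16.1%, near that of this list. Xpot, the tRNA exporter, had -0.46 and Lars, the leucyl-tRNA synthetase, -0.45, and next came the row that Mars shares with Ddit3. Of 20 other induced targets 12 were listed and all 12 were lower, with a median of -0.56 and 9 past 1.3-fold. Nupr1 (-0.78), a small stress-induced chromatin protein, Ddit4 (-0.73), an inhibitor of mTORC1, and Gpt2 (-0.69), an alanine transaminase also counted under synthesis, were the largest. The row used for Map1lc3b (-0.30) lies on chromosome 14, while RefSeq places the gene on chromosome 8. This value cannot be assigned to Map1lc3b, though it counts among the 12 and in the 4 lists together. Without it 11 of 11 other induced targets were lower, with a median of -0.58. Over these 4 lists together, the median of -0.34 was smaller in size than the -0.52 of the members. The row of Ddit3 and Mars counts on both sides, and without it the median of the lists was -0.32. Several of these lists name genes known from earlier results of the same arrays, and every value comes from the same 8 arrays, so the lists are not independent of the members.

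The other arms of the ER stress response and genes linked to mTORC1, which sestrin 2 restrains, were counted for comparison. Of 21 ER stress sensors and targets of the ATF6 and IRE1 arms 7 were listed, 6 lower and 1 higher, with a median of -0.31. Over all rows, 59.9% were lower and the median was -0.16. Past 1.3-fold 2 of them were lower, where 16.1% of all rows were. Dnajb9 (-0.52), a co-chaperone induced by XBP1, was the largest, ahead of Atf6 and Xbp1. Of 21 genes linked to mTORC1 5 were listed and all were lower, against 59.9% of all rows, with Ddit4 (-0.73) first. Then came Eif4ebp1 (-0.36), an inhibitor of cap-dependent translation and also an ATF4 target, and Sesn3 (-0.29), a relative of Sesn2. Ddit4 and Eif4ebp1 are also counted among the other induced targets and Sesn3 among the paralogs, so these 5 are not a separate set. Relative to the median of all rows, which has about as many rows below it as above, 60% of these 5 were lower.

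**Figure D4:**
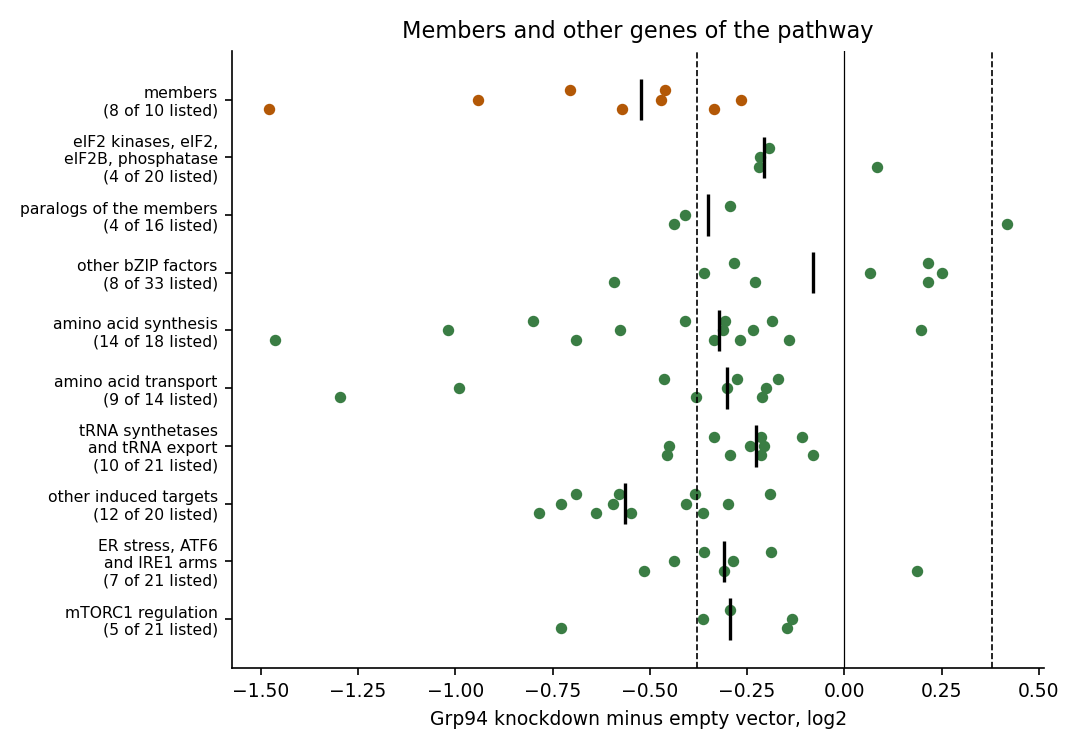
Difference of Grp94 knockdown minus empty vector on the log2 scale (x axis) for the 8 listed members (orange) and for the listed genes of 9 lists of the pathway (green), 1 point per gene, with the median of each list as a black bar and 1.3-fold as dashed lines. The medians run from -0.56 for other induced targets to -0.08 for other bZIP factors, and Trib1 (0.42), a paralog, is the only point past the right dashed line.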

How the data were processed

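Total RNA of transfected N2a cells was hybridised to Affymetrix Mouse Gene 1.0 ST arrays and analysed by the authors in Agilent GeneSpring GX. Genes under the 20th percentile of expression were left out by the authors. The authors' deposited table gives log2 means of both groups, centred for each transcript cluster, and not the values per array. Probe summarization, normalization between arrays and genome build are not given in the sources used here. The table also holds fold changes, p-values and q-values of the authors' own comparison, whose values were not used, except to check that 0 rows have a q-value over 0.01, the limit the authors set. The number of probes per row is another column of the deposited table. There were 0 columns of single samples.

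Sample titles gave the groups. The difference is the knockdown mean minus the empty vector mean. Symbols were split where a row names several (258 rows). Where a gene of a list had several rows, that with the largest absolute difference was used. Differences carry neither a test nor an error, since values per array were not at hand and the p-values of the authors were not used. Members, lists and motifs were chosen with earlier results of these data known. Genes named are all members, Hsp90b1 and the 3 genes with the largest absolute difference of each list. The kinase genes without a row, the markers and Map1lc3b are named besides. Promoters are from RefSeq (GRCm38.p6). Scripts were tested on simulated data and run in Python 3.11.15 (pandas 2.3.3, matplotlib 3.10.9, numpy 2.4.6).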

Additional observations from a re-analysis of the deposited data

How the results depend on the processing

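No paired analysis was possible because the deposited table holds 1 mean per group and no values per array, and for the same reason no array could be left out. Of the members, 3 were lower past a fold of 1.5 (Fam129a, Trib3 and Ppp1r15a) in place of 6 at 1.3, which follows from the stricter threshold. At 1.2 and with no threshold 8 were lower. Of all rows, 16.1% were lower past 1.3-fold and 59.9% with no threshold. At the other settings given here the share of all rows was not counted, so the members' counts there have no comparison. Without rows of several symbols 5 of 6 members were past 1.3-fold, and their median was -0.64 in place of -0.52. Re-centring all differences on the median of listed rows, -0.16, left 4 members past 1.3-fold and a median of -0.36. It gave Fam129a -1.31, Trib3 -0.78, Ppp1r15a -0.54, Atf3 -0.41, Sesn2 -0.31, Atf5 -0.30, Ddit3 -0.17 and Atf4 -0.10, so that no member turned higher. Each member has 1 row, so averaging rows changed nothing. Among 26 alternatives for the share of lower genes in the lists, 0 turned the direction and 23 lay within the binomial interval of the share. The interval treats genes of a list as independent and is wide with 4 to 14 genes. For the 5 genes linked to mTORC1 it held a fall from 100% to 60%. Other bZIP factors began at 50% and so could not turn direction. These counts therefore do not show that the shares are stable. At 1.3-fold the share was 100% for other bZIP factors (1 gene, from 50%), amino acid synthesis (6 genes, from 92.9%) and the ER stress list (2 genes, from 85.7%), since fewer genes pass. No gene of the eIF2 list passed that threshold, which left it without a share. In an alternative chosen after seeing the data, rows on another chromosome than RefSeq gives for the gene were left out (Eif2s2 and Map1lc3b, though Map1lc3b also has a row on its own chromosome). Then 2 of 3 genes of the eIF2 list and 11 of 11 other induced targets were lower. Map1lc3b was dropped there, and its other row was not put in its place.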

Other observations

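Promoter windows were at hand for 33 of the 44 listed genes of the 4 target lists (75%) and for 75.1% of all listed genes. Both shares are under the 80% set as a minimum, so a comparison of motifs between these genes and the members is void, and none is given.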
